A study of Ipomoea batatas with 12 samples.

Results

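Sweet potato leaves treated for 1 h with the peptide IbPep1 were set directly against leaves treated for 1 h with the peptide IbHypSysIV. The comparison rests on 8 of the 12 libraries of the series, 4 per peptide, taken by their source names, and the 4 water-treated libraries were left out of the fit. All plants were Ipomoea batatas cultivar Tainong 57, grown from scions for 3 weeks at 28 °C by day and 25 °C by night, and the third leaf was sampled. Messenger RNA was sequenced and reads were counted per gene. Of the 4 libraries sourced as IbPep1, replicate 1 carries IbPep1 in a separate treatment field, and replicates 2, 3 and 4 carry IbPep2, IbPep3 and IbPep4 there. The treatment protocol names no such further peptides, so these libraries are called IbPep1 here by source name, and whether the field counts samples or names peptides cannot be told apart. The labels give no dose, no plant or pool per library and no mode of application, so p-values measure the spread between these libraries, which may be technical.

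Plant elicitor peptides such as IbPep1 are cut from longer precursors inside cells and, when released by damage, are sensed at the cell surface by receptor kinases with leucine-rich repeats, as worked out in Arabidopsis. Hydroxyproline-rich systemins such as IbHypSysIV are a different family, processed from secreted precursors and known from tobacco and tomato as wound signals that raise defence proteins. Both families are thus regarded as the plant's own danger signals, and the comparison asks where the leaf's early messenger RNA response to them differs. The deposited table lists genes by identifiers of the form itf05g06830 and does not pair them with names or functions, and 0 of its 32301 identifiers occurred in the reference gene table at hand. No role can therefore be given for any gene below, no pathway list or leaf marker could be used, and 2 genes per direction are named.

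The libraries held 19862106 to 23153078 counts with IbPep1 and 16607188 to 25073251 with IbHypSysIV, so 3 counts, the floor used here, stand for 0.120 to 0.181 CPM, that is, counts relative to the total of their library. A first principal component with 43.2% of the variance separated the peptides, at 37.7 to 57.7 for the IbPep1 libraries and -76.0 to -29.8 for the IbHypSysIV libraries. The second, with 22.6%, set 1 library of each group apart from the rest. IbPep1 replicate 3 lay at -57.2, against 13.5 to 31.4 for the other IbPep1 libraries, and IbHypSysIV replicate 4 lay at -61.9, against 10.6 to 23.4 for the other IbHypSysIV libraries. Across genes, the correlation between these 2 libraries was 0.956, within the range of IbPep1 replicate 3 with its own group (0.954 to 0.963). This was not particular to them, as IbPep1 replicate 4 and IbHypSysIV replicate 1 correlated at 0.964. That value too lay within the range of IbPep1 replicate 4 with its own group (0.958 to 0.978). The main counts are also given without IbPep1 replicate 3 and IbHypSysIV replicate 4.

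Of 22681 genes tested, 3577 differed between the peptides, which is 15.8% (quasi-likelihood F-test of edgeR, Benjamini-Hochberg adjusted p under 0.05). Messenger RNA was higher with IbPep1 in 1558 genes, or 6.87% of those tested, and lower with IbPep1 in 2019, or 8.9%. Differences of at least 2-fold made up 1513 of the calls, or 6.67% of the genes tested, 773 of them higher and 740 lower with IbPep1. Among the calls, 107 higher and 116 lower genes differed 4-fold or more. In a bulk leaf sample, a change in the number of cells of a type and a change in RNA per cell cannot be told apart. The typical called difference was moderate. The median was 1.99-fold among genes higher with IbPep1, with quartiles of 1.65 and 2.63, and 1.83-fold among genes lower with IbPep1, with quartiles of 1.59 and 2.25.

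The number of calls depended on single libraries. It fell to 1713, 1243 and 2300 without IbPep1 replicates 1, 2 and 4, and to 1431 without IbHypSysIV replicate 3. Leaving out IbPep1 replicate 3 and IbHypSysIV replicate 4 together gave 3795 calls, 2856 of them shared with the 3577. Of the 3795, 1665 were higher and 2130 lower with IbPep1, and 1793 differed at least 2-fold. In all 8 fits that left out 1 library, 1088 of the 3577 genes were called each time, 435 higher and 653 lower with IbPep1.

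**Figure D1:**
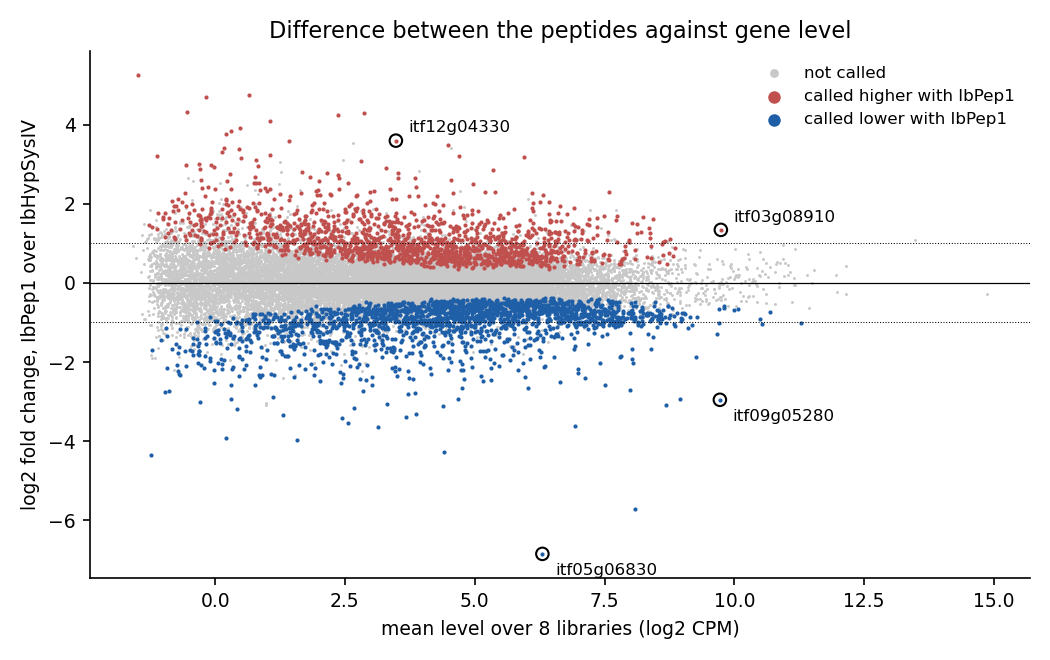
Each point is 1 of the 22681 genes tested, with its mean level over the 8 libraries (log2 CPM) on the horizontal axis and its log2 fold change, IbPep1 over IbHypSysIV, on the vertical axis. Red points are the 1558 genes called higher and blue points the 2019 called lower with IbPep1, dotted lines mark 2-fold, and circles mark the 4 named genes.

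In each direction 2 genes are named, both without overlap between the groups and called whichever library was left out. The first has the largest fitted difference among genes with at least 3 counts in every library and a mean of at least 1 CPM, so that genes near the floor in 1 group, whose fitted fold changes depend on the prior count, are not considered. The second has the highest mean level among genes that differed at least 2-fold. Among genes within the count limits, itf12g04330 had the largest difference upward with IbPep1. Its level was 22.0, 30.6, 22.3 and 7.65 CPM in IbPep1 replicates 1 to 4, against 1.56, 1.22, 0.964 and 3.14 CPM in IbHypSysIV replicates 1 to 4. The groups did not overlap, and the library nearest to the other group was IbPep1 replicate 4 on 1 side and IbHypSysIV replicate 4 on the other. The means were 20.6 ± 9.52 CPM with IbPep1 and 1.72 ± 0.977 CPM with IbHypSysIV (SD, n = 4 each), a 12.1-fold difference (adjusted p = 0.00350 by the edgeR quasi-likelihood test; log2 fold change 3.60 with an SE of 0.48). In the water libraries, which the fit did not use, the gene stood at 2.49 to 4.63 CPM, with 3 of the 4 between the peptide groups and 1 inside the IbHypSysIV range.

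The most abundant gene that was at least 2-fold higher with IbPep1 was itf03g08910, 101st of the tested genes by mean level. It stood at 1271, 1270.4, 1139 and 1229 CPM in IbPep1 replicates 1 to 4, against 432, 564, 432 and 508 CPM in IbHypSysIV replicates 1 to 4. Each group was tight and the gap between them was wider than either range. The means were 1227 ± 62.1 CPM with IbPep1 and 484 ± 64.4 CPM with IbHypSysIV (SD, n = 4 each), 2.54-fold higher with IbPep1 (adjusted p = 0.00294 by edgeR; log2 fold change 1.34 with an SE of 0.17). The water libraries lay between the groups, at 628, 619, 1115 and 769 CPM. The third of these, water replicate 3, was close to the IbPep1 level.

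Among genes lower with IbPep1, and within the same count limits, itf05g06830 showed the largest difference. It stood at 1.74, 0.307, 2.33 and 0.914 CPM in IbPep1 replicates 1 to 4, from 36, 6, 59 and 19 counts. In IbHypSysIV replicates 1 to 4 it reached 146, 198, 207 and 75.2 CPM, so the lowest of these was many times the highest IbPep1 value. The fitted difference was 116-fold (adjusted p = 0.000497 by edgeR; log2 fold change -6.85 with a 95% interval of -8.11 to -5.60). Water libraries stood at 2.45, 8.61, 0.459 and 7.88 CPM, far below the IbHypSysIV libraries, and 1 of them (replicate 3) fell inside the IbPep1 range.

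The most abundant gene at least 2-fold lower with IbPep1 was itf09g05280, with 198, 159, 154 and 259.8 CPM in IbPep1 replicates 1 to 4, against 1812, 1603, 1771 and 799 CPM in IbHypSysIV replicates 1 to 4. The groups were far apart, although IbHypSysIV replicate 4 held less than the other 3 of its group. The means were 193 ± 48.9 CPM with IbPep1 and 1496 ± 474 CPM with IbHypSysIV (SD, n = 4 each), 7.76-fold lower with IbPep1 (adjusted p = 0.00152 by edgeR; log2 fold change -2.96 with an SE of 0.31). All 4 water libraries, at 636 to 731 CPM, lay between the peptide groups. Water as a middle level was thus seen for both abundant genes, and in itf05g06830 it lay near IbPep1. Near-identical gene copies that share reads, and antisense genes, could not be recognised, so each of the 4 identifiers is uncertain in that respect.

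**Figure D2:**
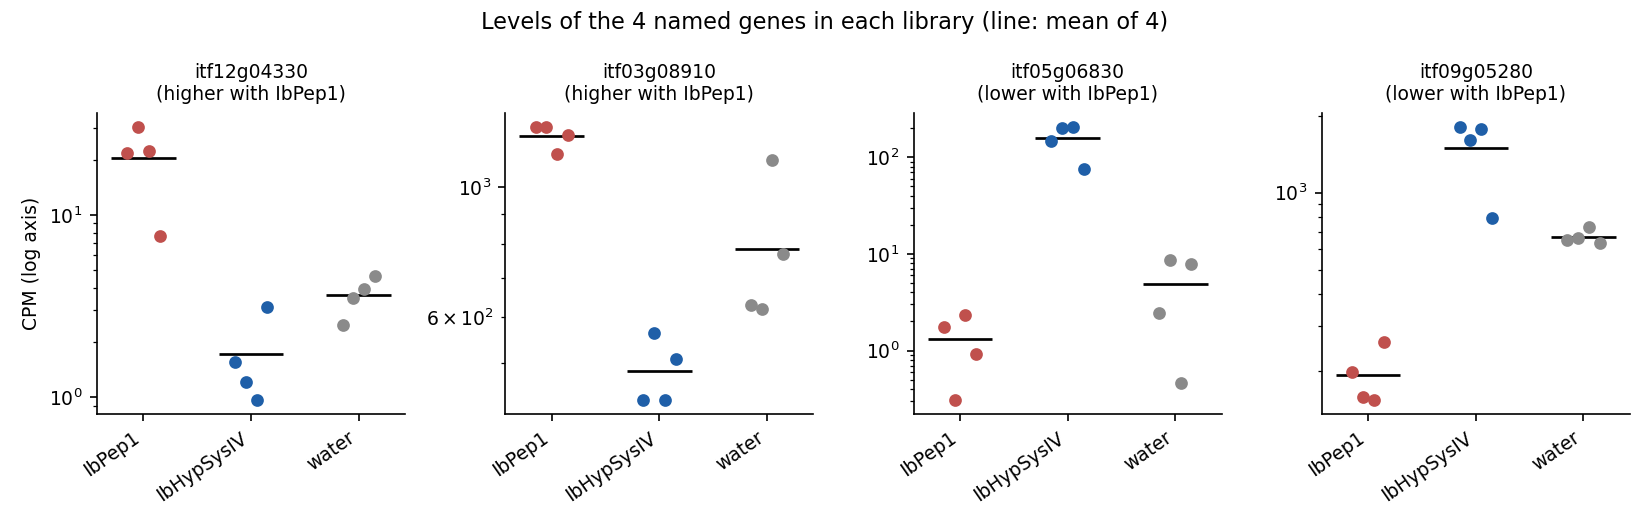
Level of each named gene (CPM, log axis) in the 4 IbPep1, 4 IbHypSysIV and 4 water libraries, 1 point per library, with a line at the group mean. In all 4 panels the IbPep1 and IbHypSysIV points do not overlap, as the naming rule required. The widest separation is that of itf05g06830, which was named for the size of its difference.

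A test against 2-fold, rather than against no difference, was passed by 60 genes, 0.265% of those tested (threshold test of edgeR, Benjamini-Hochberg adjusted). IbPep1 gave the higher level in 17 and the lower level in 43. All 60 had groups without overlap, as had 24.2% of all genes tested. Of the 17 higher genes, 13 held at least 3 counts in every library, and these differed 3.46- to 12.1-fold with a median of 4.56-fold. Of the 43 lower genes, 42 held at least 3 counts in every library, with differences of 3.29- to 116-fold and a median of 5.81-fold. The mean level over the 8 libraries was 0.355 to 86.2 CPM among the 17 and 0.426 to 844 CPM among the 43. The count of 60 was 19 without IbPep1 replicate 2 and 25 without IbHypSysIV replicate 3. It was 21 and 30 without IbPep1 replicates 1 and 4, 32 without IbHypSysIV replicate 2, 29 with limma-voom, and 100 without IbPep1 replicate 3 and IbHypSysIV replicate 4.

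Most genes were alike within a bound. In 13246 of the 22681 genes the 95% interval of the difference lay within 2-fold either way, 693 of these being called for a small difference, and without IbPep1 replicate 3 and IbHypSysIV replicate 4 there were 12764 such genes. Another 6551 genes were neither called nor bounded in this way, so that for them the libraries showed neither a difference nor its absence.

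Tested genes were divided into 5 equal groups by mean CPM, and the share called lower with IbPep1 rose over them, at 4.21%, 6.86%, 8.60%, 10.7% and 14.2% from the lowest to the highest level. The share called higher was 5.29%, 7.78%, 7.08%, 7.14% and 7.06% in the same order. In the highest group, of genes above 48.9 CPM, 320 were higher and 643 lower. With upper-quartile scaling these were 363 and 599, and without IbPep1 replicate 3 and IbHypSysIV replicate 4 they were 404 and 710. In the lowest group, up to 2.50 CPM, 240 were higher and 191 lower. The precision changed along the same axis: the median SE of the log2 difference was 0.37 in the lowest group and 0.18 in the highest, and its part in the share of calls was not tested.

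**Figure D3:**
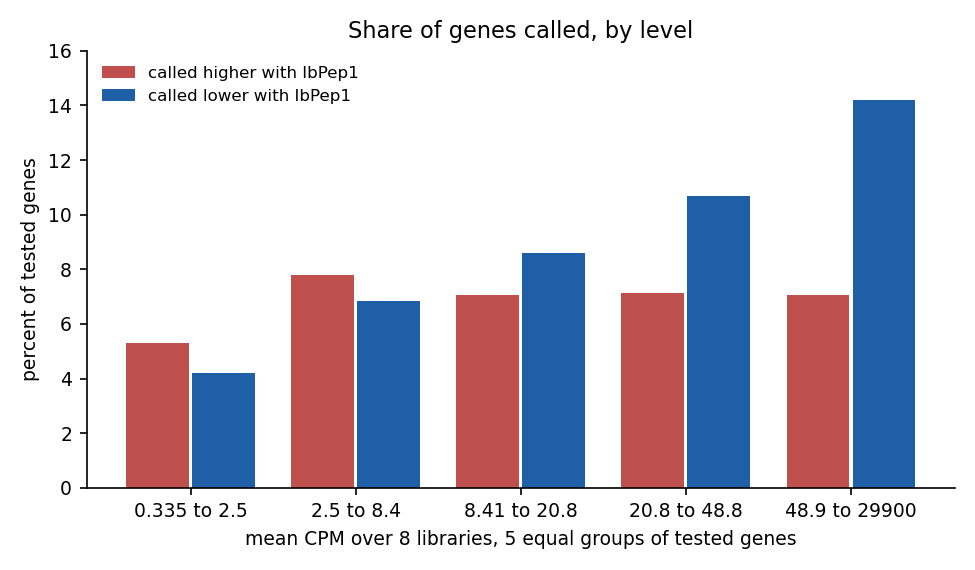
Percent of tested genes called higher (red) and lower (blue) with IbPep1, in 5 equal groups of genes by mean CPM over the 8 libraries. The blue bars rise from 4.21% to 14.2% with level, while the red bars stay between 5.29% and 7.78%.

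In the 8-library fit, the 2019 genes lower with IbPep1 together carried more reads than the 1558 higher ones, which are also fewer. Read shares in the 8-library fit are summed CPM after library scaling (TMM factors of 0.914 to 1.10). They therefore differ somewhat from plain fractions of a library's reads. Together, the 2019 lower genes took 9.15%, 8.76%, 9.55% and 8.83% in IbPep1 replicates 1 to 4. In IbHypSysIV replicates 1 to 4 they took 14.7%, 19.6%, 16.95% and 16.2%. The 1558 higher genes took 7.04%, 7.68%, 6.88% and 6.65% in IbPep1 replicates 1 to 4, against 3.86%, 3.35%, 3.63% and 3.85% in IbHypSysIV replicates 1 to 4. These genes were chosen for their difference in the same libraries, so the sums are a description. On the genes called without IbPep1 replicate 3 and IbHypSysIV replicate 4, the lower genes took 9.46% to 9.81% in the other 3 IbPep1 libraries and 15.9% to 20.6% in the other 3 IbHypSysIV libraries. The higher genes took 11.9% to 12.3% with IbPep1 and 5.81% to 6.48% with IbHypSysIV. On these calls the higher genes thus carried more than the lower genes with IbPep1, and less with IbHypSysIV. In the 8-library fit both differences were spread over many genes: 163 lower genes and 139 higher genes made up 50% of the respective shift in these scaled shares. In water, the higher genes took 4.16% to 6.29% of reads, between the ranges of the peptide groups. The lower genes took 10.4% to 15.5% in water, which reached into the IbHypSysIV range.

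The 100 most abundant genes took a mean of 19.2% of the reads of tested genes, here as a plain fraction without library scaling. The fitted level was higher with IbPep1 in 59 of them and lower in 41. Called lower with IbPep1 were 8 of the 100, against 8.9% of all genes tested and 14.2% of the highest level group. Called higher were 6.87% of all genes tested and 7.06% of that group. Among the 100, the count called higher was 0 with edgeR's quasi-likelihood test, 2 at an unadjusted p under 0.05, 3 with DESeq2 and 0 with limma-voom. It was 4 with sample quality weights in limma-voom, and 7 without IbPep1 replicate 3 and IbHypSysIV replicate 4. In 50 of the 100 the 95% interval lay within 2-fold.

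Genes seen with 1 peptide and not above the floor with the other were rare. With more than 10 counts in every IbPep1 library and at most 3 in every IbHypSysIV library there were 3 genes, and 1 gene met the opposite condition. In these 3, IbPep1 replicates 1 to 4 held 18, 35, 47 and 15 counts, 16, 18, 13 and 24 counts, and 13, 20, 13 and 13 counts, against 0 to 3 counts in any IbHypSysIV library. In the 1 opposite gene the IbPep1 libraries held 0 to 2 counts, against 26, 14, 12 and 15 counts in IbHypSysIV replicates 1 to 4. Water held 0 to 10 counts of the 3 and 3 to 6 counts of the other gene, so only 1 of the 4 was at or under the floor in every water library. The levels were 0.703 to 1.34 CPM in the group that showed them. The 4 were chosen for this difference in these same libraries, so their calls add nothing to it. With a limit of more than 3 counts in the group that showed the gene, the numbers were 38 seen with IbPep1 and 18 with IbHypSysIV, of which only 3 and 1 passed the filter on low counts and were tested. Over the 6 libraries without IbPep1 replicate 3 and IbHypSysIV replicate 4, the limit of more than 10 counts gave 4 genes seen with IbPep1 and 5 with IbHypSysIV.

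Whether the differences were shared by a library that had no part in choosing the genes was examined by leaving each library out, calling genes on the other 7, and placing the library on those genes, with 0 at the IbHypSysIV mean and 1 at the IbPep1 mean of the others. IbPep1 replicates 1 to 4 had median positions of 0.921, 1.07, 0.768 and 0.848, and IbHypSysIV replicates 1 to 4 had 0.376, -0.205, 0.0265 and 0.252. Every median thus fell on its own side of the midpoint, with IbHypSysIV replicate 1 closest to it. The share of genes on the library's own side was 93.1%, 96.6%, 73.9% and 80.9% for IbPep1 replicates 1 to 4 and 65.1%, 90.1%, 96.2% and 70.5% for IbHypSysIV replicates 1 to 4. IbPep1 replicate 4 was uneven between directions, with 71.2% of the genes higher with IbPep1 and 90.1% of the lower ones on its own side.

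**Figure D4:**
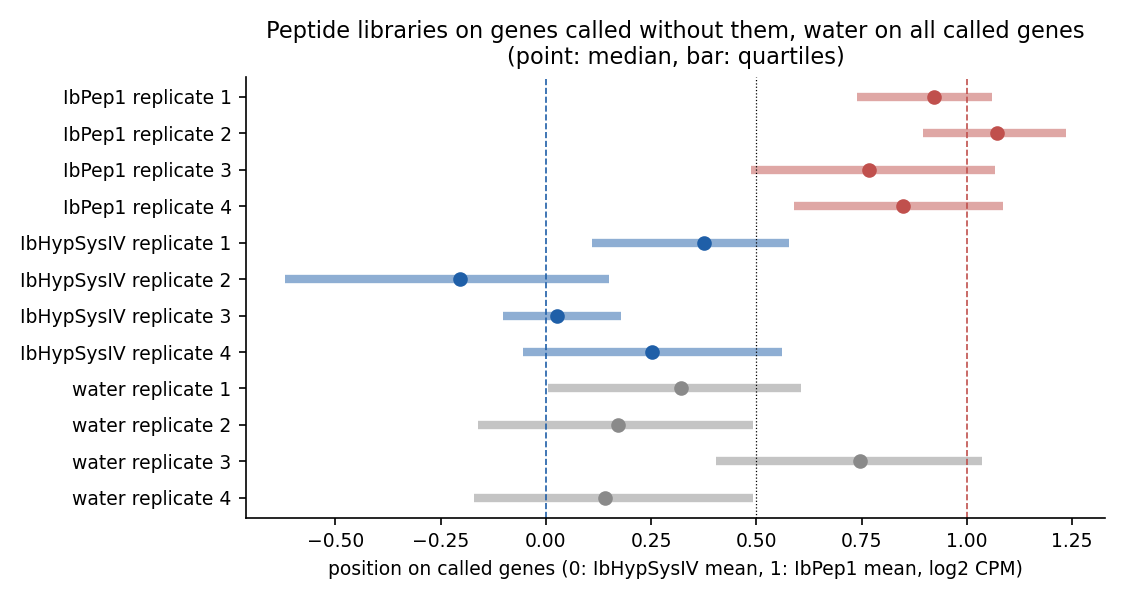
Position of each library between the IbHypSysIV mean (0) and the IbPep1 mean (1) in log2 CPM, as the median (point) and quartiles (bar) over genes called without that library, or, for water, over all 3577 called genes. The IbPep1 medians run from 0.768 to 1.07 and the IbHypSysIV medians from -0.205 to 0.376, and water replicate 3, at 0.746, lies apart from the other water libraries.

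Among genes higher with IbPep1, the lowest IbPep1 value was in replicate 4 for 33.8% and in replicate 3 for 31.2%, and the highest IbHypSysIV value was in replicate 1 for 40.9% and in replicate 4 for 28.3%. For genes lower with IbPep1, the IbPep1 library nearest to IbHypSysIV was replicate 3 for 41.4%, and the IbHypSysIV library nearest to IbPep1 was replicate 1 for 48.9%. The median SD of log2 CPM within a group was 0.26 with IbPep1 and 0.31 with IbHypSysIV over 4 libraries. It was 0.18 for IbPep1 without replicate 3 and 0.26 for IbHypSysIV without replicate 4. Both libraries were chosen because they stood apart in these same data, which favours a lower SD without them.

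The water libraries, which played no part in the calls, lay nearer to IbHypSysIV than to IbPep1 on most of the 3577 genes. Their mean was nearer to the IbPep1 mean in 1168 genes and nearer to the IbHypSysIV mean in 2409. It lay beyond IbPep1 in 185, beyond IbHypSysIV in 645 and between the peptides in 2747. No test was made, since the genes were chosen for the distance between the peptide means, which favours a value between them. By library, the median positions of water replicates 1 to 4 were 0.322, 0.171, 0.746 and 0.141, so that replicate 3 lay on the IbPep1 side and the other 3 on the IbHypSysIV side. Without water replicate 3 the mean was nearer to IbPep1 in 873 genes and nearer to IbHypSysIV in 2704, and it lay beyond IbHypSysIV in 1125. The pattern was alike for both directions: with all 4 water libraries the median position was 0.312 for genes higher and 0.352 for genes lower with IbPep1, and 0.179 and 0.211 without water replicate 3. On the 3795 genes called without IbPep1 replicate 3 and IbHypSysIV replicate 4, the mean of all 4 water libraries was nearer to IbPep1 in 1287 and nearer to IbHypSysIV in 2508. Of the 60 genes that passed the test against 2-fold, water was nearer to IbHypSysIV in 13 of the 17 higher and 25 of the 43 lower ones.

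**Figure D5:**
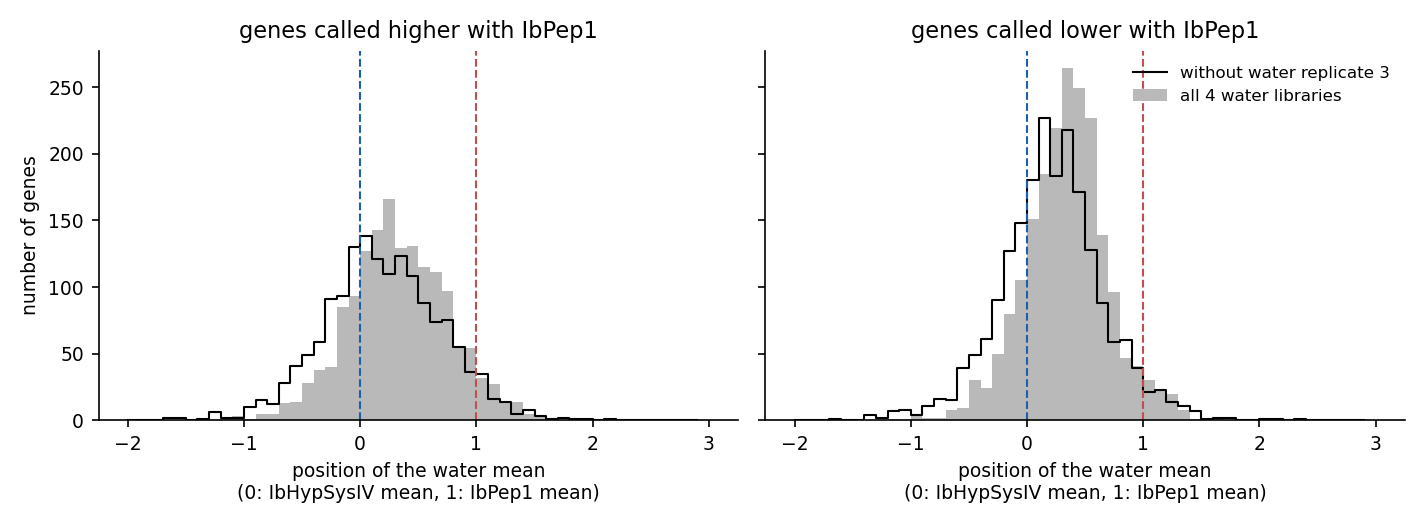
Number of called genes by the position of the water mean, with 0 at the IbHypSysIV mean and 1 at the IbPep1 mean in log2 CPM, for the 1558 genes higher (left) and the 2019 lower (right) with IbPep1; the few positions outside the axis are counted in its end bins. Grey bars use all 4 water libraries, with medians of 0.312 and 0.352, and the black line leaves out water replicate 3, with medians of 0.179 and 0.211.

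The only grouping that the table itself gives is the identifier, whose first part runs from itf00 to itf15. Calls were found under every one of the 16 prefixes, at 13.3% of tested genes (itf15) to 18.1% (itf07), near the 15.8% of all genes. Under itf00, 9.40% of tested genes were higher and 6.61% lower with IbPep1, and under itf10, 8.40% were higher and 7.54% lower. Under each of the other 14 prefixes fewer genes were higher than lower. Without IbPep1 replicate 3 and IbHypSysIV replicate 4 the share called was 14.1% to 18.6% by prefix and 16.7% over all genes, with fewer higher than lower genes under 13 prefixes. Genes with successive identifiers shared a call at a higher rate than all pairs did, which is a description with no test. When a gene was higher with IbPep1, the next tested identifier under the same prefix was also higher in 14.8% of cases, against 6.87% over all such pairs, and was lower in 6.68%, against 8.90% over all pairs. When a gene was lower, the next was also lower in 13.4% of cases, against the same 8.90%. Without IbPep1 replicate 3 and IbHypSysIV replicate 4 the next shared a higher call in 14.96% of cases, against 7.32% over all pairs, and a lower call in 13.5%, against 9.34%. Runs of 3 or more successive tested identifiers called in 1 direction numbered 36 for higher genes, with 128 genes in all, and 23 for lower genes, with 76. The longest held 8 higher genes and 6 lower genes. Reads shared between similar copies could also give such runs, and their part was not tested.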

How the data were processed

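The table deposited by the authors holds raw counts of reads for each gene, 1 column per library. The submitters' processing notes name DESeq2 1.22.2, HTSeq 0.6.1 and HISAT2 2.0.5, with no role. For genome build, annotation and strand setting, nothing is stated in the labels or the file. Per the labels' protocols, RNA was extracted with TRIzol, and 2 library kits are named without saying which served which library. Columns were matched to samples by title and samples to groups by source name, with replicates numbered in accession order.

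The 8 peptide libraries were analysed in R 4.3.3 with edgeR 4.0.16. The filter filterByExpr kept 22681 of 32301 genes, holding 99.9% of counts. Libraries were scaled by TMM factors of 0.914 to 1.10, and IbPep1 over IbHypSysIV was tested with the quasi-likelihood F-test, Benjamini-Hochberg adjusted over all genes tested, at 0.05. The test against 2-fold was glmTreat. The SE is the log2 fold change over the root of F, and intervals are 95%. The biological coefficient of variation was 26.5%. CPM are scaled to kept-gene totals times the TMM factor. Principal components, positions and SDs use log2 CPM with a prior count of 2, and water levels TMM over 12 libraries. For the named genes, water levels thus stand beside peptide levels scaled over 8 libraries. A water value close to the edge of a peptide range is not placed exactly. Floors cover counting error only. No pair of replicates was a copy (chi-square over degrees of freedom 16.5 or more).

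Named genes had to be called in all 8 leave-one-out fits without overlap. Per direction they are the largest fitted difference (mean of at least 1 CPM, at least 3 counts in every library) and the highest mean CPM among at least 2-fold differences. Comparison, lists and rules were chosen with earlier results of these data known; the 0 identifiers matched left 0 of the planned gene and marker lists usable. Alternatives were other scalings, filters, DESeq2 1.42.0, limma 3.58.1 (voom), all 12 libraries, a block and left-out libraries. The procedure was tested on simulated counts with 200 changed genes, fewer than the 3577 called here. It recovered 5.97% of 1.5-fold, 20.9% of 2-fold and 86.4% of 4-fold changes. Of its 79 calls, 5.06% were false.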

Additional observations from a re-analysis of the deposited data

Results flagged for a closer look

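IbHypSysIV replicate 4 stood far from the other 3 libraries of its group on the second principal component of the 8 libraries, at -61.9 against 10.6 to 23.4, a gap of 0.850 of the group's range. It was the only value flagged in this way among 29 groups of 4 values examined. About 1 in 20 such groups is expected to be flagged by chance, so 1 among 29 is not above that rate. IbPep1 replicate 3 was not flagged but also lay apart on this component, at -57.2 against 13.5 to 31.4. IbHypSysIV replicate 4 also had the lowest total, 16607188 counts, while IbPep1 replicate 3 held 23153078. The part of depth in these positions was not tested. Without IbHypSysIV replicate 4, 3648 genes were called, 2924 of them shared with the 3577.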

How the results depend on the processing

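Over the 8 fits that each left out 1 library, the number of genes called ranged from 1243 to 3648, higher with IbPep1 from 524 to 1611, lower from 719 to 2037, called with at least 2-fold from 826 to 1744, beyond 2-fold by the threshold test from 19 to 76, and with an interval within 2-fold from 11833 to 13462. Without IbPep1 replicate 3 and IbHypSysIV replicate 4 together, 100 genes passed the threshold test; with limma-voom 29 did. DESeq2 called 5352 genes, 2478 higher and 2874 lower with IbPep1, and 3569 of the 5352 were among the 3577. Sample quality weights in limma-voom gave 6896 calls, 3299 higher and 3597 lower. Under the other scaling, filter, tool and 12-library settings all 6 counts stayed within 1.5 times. The titles share only the numbers 1 and 4 between the groups, and the deviations of those pairs correlated at -0.0447 and -0.0585 across genes, so the numbers were not taken to pair libraries. A replicate block on them, with 1 residual degree of freedom, called 225 genes, 115 higher and 110 lower, all 225 at least 2-fold, with 25 beyond 2-fold and 5073 intervals within 2-fold; 192 of the 225 were among the 3577. The naming rule fixed the calls of the 4 named genes in the 8 leave-one-out fits. In the other 11 settings they kept direction and call, except that itf03g08910 lost its call under the block (log2 1.29, adjusted p = 0.348 by edgeR; 2.49e-21 to 0.348 over its alternatives). The checks of level groups, successive identifiers, prefixes, read shares, genes near 0 and the 100 most abundant genes, and of water without the pair, were chosen after seeing the data. At this depth and number of libraries, the median 95% interval of a log2 difference was 0.97 wide and the smallest difference called was 0.35.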
